A study of Mus musculus with 12 samples.

Results

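Dusp1, Dusp2, Dusp4, Dusp5, Dusp6, Dusp10, Spry1, Spry2, Spred1 and Spred2 are genes whose products hold back the mitogen-activated protein (MAP) kinases, and they were taken here by name as ERK feedback phosphatases and Sprouty genes. All 10 were found once each among the 54532 genes of the count table, and all 10 were abundant enough to be tested. Their messenger RNA was measured by sequencing bulk RNA of haematopoietic stem and progenitor cells (HSPCs) of the mouse, which sit in the marrow and give rise to all blood cells. The 12 libraries form 4 groups of 3: uncultured HSPCs of young mice, uncultured HSPCs of aged mice, HSPCs of aged mice cultured with vehicle, and HSPCs of aged mice cultured with uridine, the nucleoside of the RNA base uracil. All groups are labelled wild type (WT), and bone marrow is given as the source. The genotype label reads c57bl/6 in the vehicle libraries but runs from c57bl/7 to c57bl/15 over the other libraries, so the strain of those 9 libraries cannot be read from it with certainty. The sources used here give no ages, sort markers, culture time or dose of uridine. No label ties a library to an animal or a culture of its own. The p-values therefore measure only the spread between libraries, which may be technical.

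Growth factor receptors such as Kit and Flt3 switch on Ras, which starts the RAF, MEK and ERK kinase cascade. Active ERK raises the transcription of its own inhibitors. The DUSP proteins take the phosphates off MAP kinases, whereas Sprouty and SPRED proteins act higher up, on the step from the receptor to Ras and RAF. In HSPCs this cascade carries signals of stem cell factor, FLT3 ligand and thrombopoietin, and it is tied to proliferation and lineage choice. Dusp1, Dusp2, Dusp4 and Dusp5 encode phosphatases of the nucleus. Dusp6 encodes a phosphatase of the cytoplasm that prefers ERK, and Dusp10 encodes one that prefers JNK and p38. Dusp1 is also a classical immediate early gene, meaning that it is transcribed within minutes of a stimulus without new protein.

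On GRCm38 (mm10) Dusp1 spans chr17:26505590-26562128, Dusp2 chr2:127336159-127338376, Dusp4 chr8:34807297-34819894, Dusp5 chr19:53529109-53542431, Dusp6 chr10:99263231-99267489 and Dusp10 chr1:184013302-184075636. Spry1 spans chr3:37639947-37644598, Spry2 chr14:105891947-105896819, Spred1 chr2:117121374-117182279 and Spred2 chr11:19924375-20024026. Dusp1 and Spry2 lie on the minus strand and the other members on the plus strand.

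The stretches before the transcription start of Dusp1, Dusp2, Dusp5 and Dusp6 are shown because Dusp1, Dusp2 and Dusp5 are the nuclear phosphatase genes that were lower in vehicle culture than in uncultured aged cells, and because Dusp6 was not. They come from the RefSeq promoter table for GRCm38.p6, which held 9 of the 10 members. Each is written 5′ to 3′ on the gene's own strand and leaves out any annotated untranslated region. Capitals mark matches of 8 motifs searched on both strands: the cyclic AMP response element (CRE) TGACGTCA, its short form TGACG, the AP-1 site TGANTCA, the CArG box bound by serum response factor, TATAAA, the E-box CACGTG, the ETS site CCGGAAG and the EGR site GCGNGGGCG. The full CRE contains the short form on both strands. The Dusp1 stretch is chr17:26508520-26508722 on the minus strand, that of Dusp2 is chr2:127335909-127336158 on the plus strand, that of Dusp5 is chr19:53528895-53529108 on the plus strand, and that of Dusp6 is chr10:99262981-99263230 on the plus strand.
Dusp1: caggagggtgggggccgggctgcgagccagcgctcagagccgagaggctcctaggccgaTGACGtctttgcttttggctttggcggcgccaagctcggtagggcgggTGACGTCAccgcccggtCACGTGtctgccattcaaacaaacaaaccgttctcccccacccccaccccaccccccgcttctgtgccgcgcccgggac
Dusp2: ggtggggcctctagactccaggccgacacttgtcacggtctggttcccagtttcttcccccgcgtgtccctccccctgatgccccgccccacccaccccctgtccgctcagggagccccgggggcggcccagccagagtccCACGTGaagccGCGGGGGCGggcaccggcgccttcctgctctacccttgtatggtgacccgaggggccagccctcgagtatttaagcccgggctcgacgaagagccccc
Dusp5: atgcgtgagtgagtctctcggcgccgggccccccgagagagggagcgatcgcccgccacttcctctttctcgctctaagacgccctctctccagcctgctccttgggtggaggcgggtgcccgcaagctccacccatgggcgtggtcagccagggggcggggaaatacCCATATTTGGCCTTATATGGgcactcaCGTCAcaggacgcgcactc
Dusp6: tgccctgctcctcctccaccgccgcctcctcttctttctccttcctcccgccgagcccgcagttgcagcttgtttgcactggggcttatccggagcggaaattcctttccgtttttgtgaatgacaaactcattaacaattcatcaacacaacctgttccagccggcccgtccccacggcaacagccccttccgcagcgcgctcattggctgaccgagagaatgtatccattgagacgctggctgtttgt

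In the 250 bases before the start, Dusp1 held a full CRE at -143 to -136, a further short form at -191 to -187 and an E-box at -126 to -121. Dusp2 held an E-box at -109 to -104 and an EGR site at -98 to -90. Dusp5 held a pair of CArG boxes side by side, at -82 to -73 and -72 to -63, and a short CRE at -55 to -51. A full CRE was found in 1 of the 9 member promoters and in 1.55% of 32841 promoters of the same length, and a CArG box in 1 of 9 and in 1.47%. Of all the promoters, 6 held 2 or more CArG boxes. The short CRE was found in 3 of 9 members, the third being Spred2, against 17.8% of promoters, the E-box in 2 of 9 against 6.02%, and the EGR site in 1 of 9 against 4.7%. The Spred2 match, at -51 to -47, lies in an annotated exon of Spred2, since the part of its window before that exon ends at -68. No AP-1, TATAAA or ETS match, which 6.75%, 12.4% and 6.91% of promoters held, lay in the 9 windows. Dusp6, Dusp10, Spry1, Spry2 and Spred1 had none of the 8 motifs in this window. These are matches of letters in a short window and were not tied to a factor or to a change in level.

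**Figure D1:**
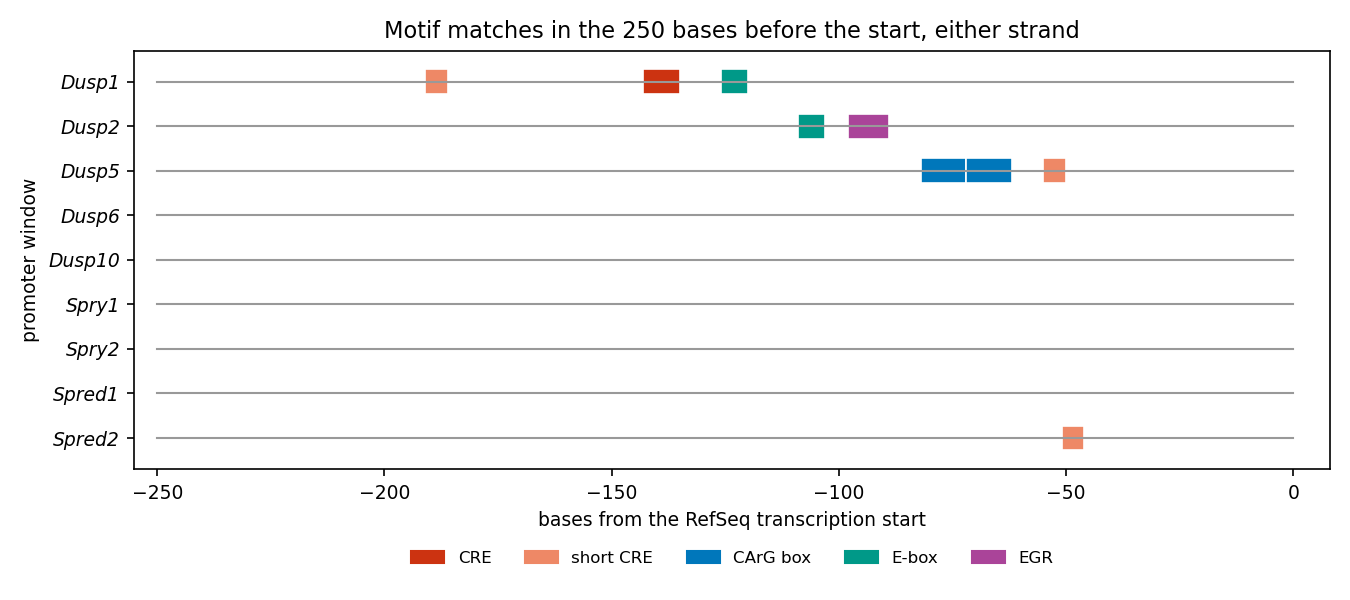
Positions of motif matches (coloured boxes) in the 250 bases before the RefSeq transcription start of the 9 members in the promoter table; the horizontal axis is the distance from the start in bases. The adjoining CArG boxes of Dusp5 lie between -82 and -63, the full CRE of Dusp1 lies at -143 to -136, and 5 windows hold no match.

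Each library held between 16785065 and 19025802 counts, and within a group the libraries differed little (common biological coefficient of variation 0.0438), so small differences between groups pass the test. The groups differed in more than the members. Summed plasma cell markers lay at 25920 to 26190 CPM (counts scaled to the size of the library) in aged uncultured cells against 691 to 699.6 in young ones, and immunoglobulin genes took 21.6% to 21.9% of counts against 0.540% to 0.544%. Jchain alone made up a mean of 23470 CPM of the plasma cell sum in aged uncultured and 303 CPM in young cells. Summed HSPC markers lay between 1074 and 1632 CPM in every library, with none at 0 counts. Single markers moved within these sums. By edgeR's quasi-likelihood test at an adjusted p under 0.05, 5 of 13 were higher and 4 lower with age. With vehicle against aged uncultured cells 5 were higher and 2 lower, and with uridine against vehicle 2 were higher and 6 lower. Mean Ly6a went from 17.8 CPM in young to 247 in aged uncultured cells, and mean Flt3 from 186 to 105. The uridine libraries lay between the vehicle and the young libraries for many genes: of 4137 genes that differed between those groups by at least 1 on the log2 scale, 79.8% had all 3 uridine libraries between the group means.

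Levels were first described group by group, in CPM. Dusp1 encodes the archetypal MAP kinase phosphatase, MKP-1. It stood at 555, 558 and 567 CPM in the young libraries, at 456, 449 and 460.4 in the aged uncultured ones, at 37.2, 39.7 and 39.0 with vehicle and at 186, 191 and 188 with uridine. No group overlapped another: the uncultured groups were high, the vehicle group was low and the uridine group lay between them. Dusp2, whose product PAC-1 was first known from activated lymphocytes, stood at 261.1, 269 and 267 CPM in young, 260.7, 246 and 257 in aged uncultured, 43.0, 44.7 and 43.2 in vehicle and 108, 105.5 and 110.0 in uridine libraries. The highest aged library fell just short of the lowest young one, and both cultured groups lay far below.

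Dusp4 and Dusp5 encode nuclear phosphatases that act on ERK, that of Dusp5 with high selectivity. Dusp4 stood at 9.25, 6.79 and 7.27 CPM in young, 21.4, 16.8 and 17.3 in aged uncultured, 28.3, 27.3 and 29.9 in vehicle and 19.6, 18.5 and 22.4 in uridine libraries. It was thus lowest in young cells and highest with vehicle, and the aged uncultured and uridine groups overlapped. Dusp5 ran the other way in culture. Its values were 108, 108 and 110.1 CPM in young, 229.9, 232 and 225 in aged uncultured, 18.5, 17.4 and 18.0 in vehicle and 50.5, 53.8 and 49.0 in uridine libraries, so that the aged uncultured libraries were highest of all and no groups overlapped.

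Dusp6, a widely used readout of ERK activity, stood at 196, 182 and 184 CPM in young, 45.3, 44.3 and 47.1 in aged uncultured, 57.8, 57.2 and 61.2 in vehicle and 105, 97.2 and 99.1 in uridine libraries. Here the aged uncultured group was the lowest and no groups overlapped. Dusp10 was scarcer, at 13.1, 16.3 and 12.9 CPM in young, 27.3, 24.3 and 25.1 in aged uncultured, 3.10, 2.91 and 3.28 in vehicle and 5.76, 8.95 and 6.27 in uridine libraries. Its vehicle values rest on 170 counts over the 3 libraries, and 1 uridine library lay above the other two.

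The Sprouty genes were high in young cells and low with vehicle. Spry1 stood at 32.8, 32.8 and 29.1 CPM in young, 14.6, 13.9 and 18.0 in aged uncultured, 5.05, 5.93 and 6.21 in vehicle and 17.9, 13.9 and 14.5 in uridine libraries. Spry2 stood at 42.7, 39.9 and 44.4 CPM in young, 21.2, 24.6 and 23.0 in aged uncultured, 9.62, 10.9 and 8.92 in vehicle and 22.8, 19.1 and 21.8 in uridine libraries. For both genes the aged uncultured and the uridine groups overlapped, below the young and above the vehicle group.

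The SPRED genes, whose products bring the Ras inhibitor neurofibromin to the membrane, did not share that order. Spred1 stood at 46.5, 46.4 and 48.0 CPM in young, 28.6, 33.9 and 33.7 in aged uncultured, 99.8, 99.98 and 95.5 in vehicle and 87.1, 85.0 and 88.1 in uridine libraries, with both cultured groups above both uncultured ones. Spred2 stood at 39.5, 37.2 and 37.2 CPM in young, 19.8, 26.4 and 24.2 in aged uncultured, 37.7, 33.6 and 35.2 in vehicle and 37.4, 36.3 and 40.7 in uridine libraries. Only the aged uncultured group of Spred2 stood apart, and the other three overlapped.

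**Figure D2:**
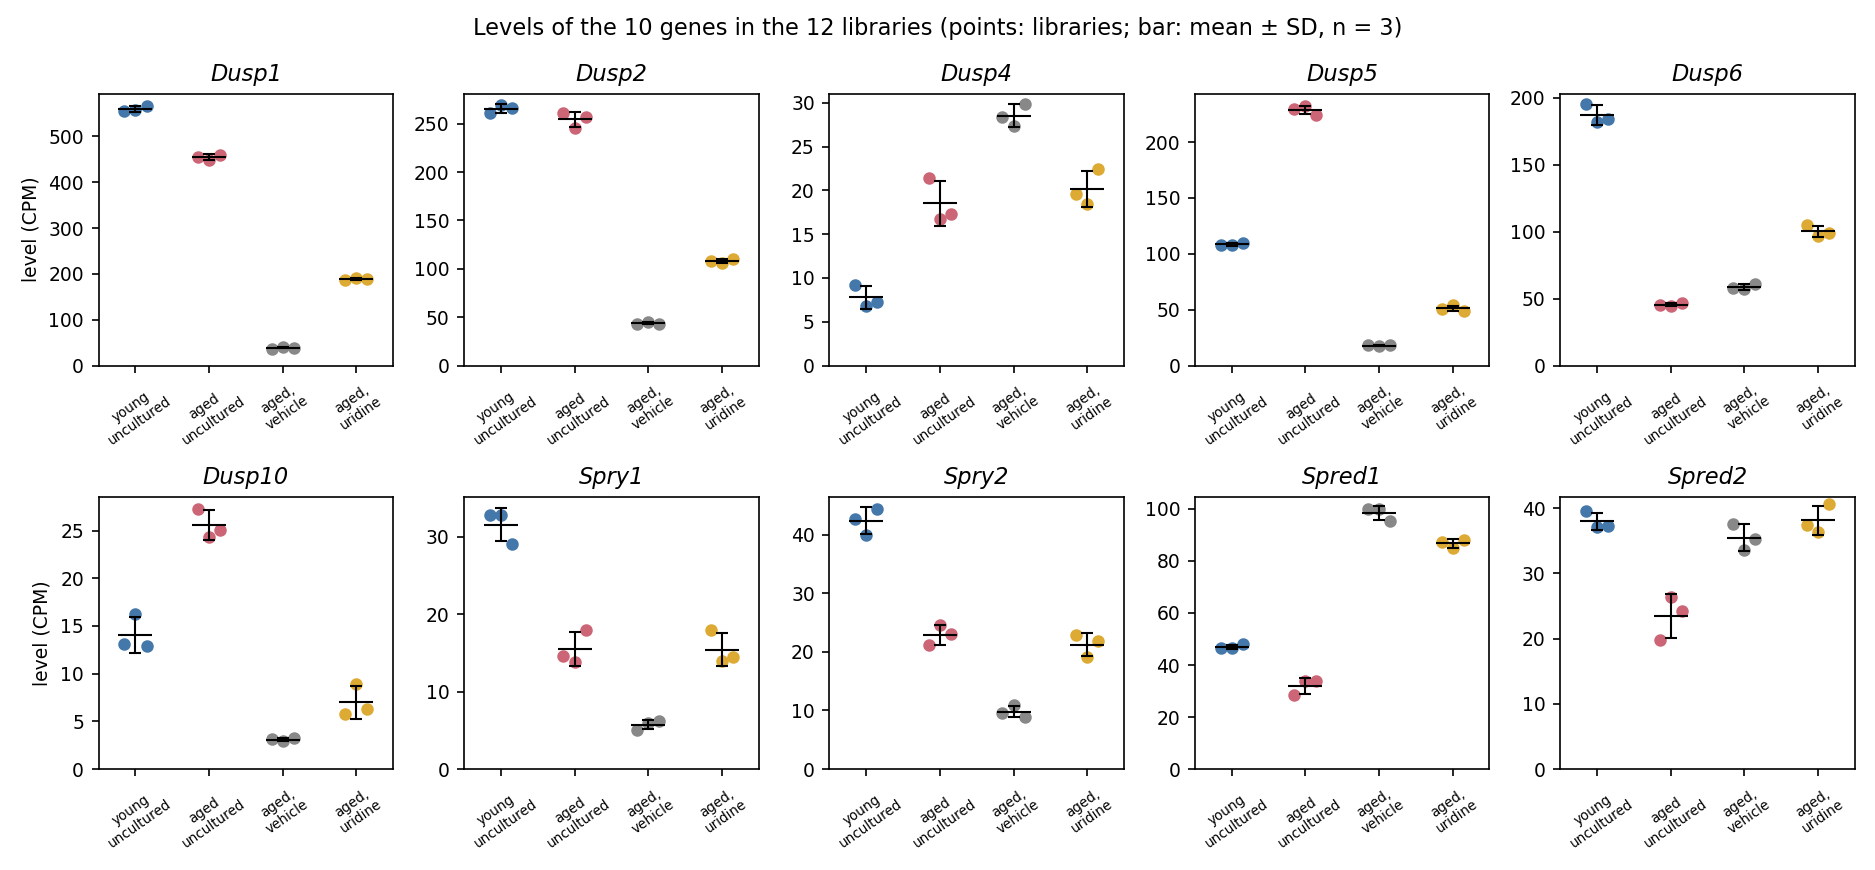
Level of each of the 10 genes in CPM (vertical axes, each from 0) in the 12 libraries; points are libraries, coloured by group, and bars show the mean ± SD of 3 libraries. Dusp1, Dusp2, Dusp5, Dusp10, Spry1 and Spry2 are lowest with vehicle, Dusp6 and Spred2 are lowest in aged uncultured cells, and Dusp4 and Spred1 are highest with vehicle.

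Per kilobase of exon, which allows a comparison between genes, Dusp1 (mean 169 CPM per kb) and Dusp2 (133) led in young cells, followed by Dusp6 (59.8), Dusp5 (43.9), Spry2 (20.3) and Spry1 (10.9). The SPRED genes, Dusp10 and Dusp4 lay below, between 2.835 and 8.22 CPM per kb. In aged uncultured cells the order began with Dusp1 (137.5), Dusp2 (127) and Dusp5 (92.5), and Dusp6 had gone down to 14.5 CPM per kb. With vehicle the members lay closer together: Dusp2 (21.8), Dusp6 (18.75) and Spred1 (14.5) led, Dusp1 stood at 11.7, Dusp4 at 10.4, and Dusp10 was last at 1.02 CPM per kb. With uridine Dusp1 (56.95) and Dusp2 (53.8) led again, ahead of Dusp6 (32.05) and Dusp5 (20.7). Dusp5 and Spry1 share 547 of 2473 and 710 of 2906 exon bases with other annotated genes, and Dusp1 shares 11 of 3311. The partner of Spry1, Gm42922, held 20 counts over the 12 libraries, whereas strand use in counting is not given, so reads of the antisense partner of Dusp5 cannot be told apart from its own.

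The first comparison asked how these genes differ with age in uncultured cells. Dusp6 and both Sprouty genes were lower in aged cells, as were Spred1, Spred2 and, slightly, Dusp1, whereas Dusp4, Dusp5 and Dusp10 were higher. The change with the greatest fold was that of Dusp6, which was 4.11-fold lower. Of the 10 members 3 were called higher, 6 lower and 1 neither way at an adjusted p under 0.05 (edgeR's quasi-likelihood test with Benjamini-Hochberg adjustment over 16675 genes), where 65.3% of all genes tested were called (33.2% higher and 32.1% lower). All 10 had groups that did not overlap, as did 66.9% of all genes. Changes of at least 1 on the log2 scale were called in 4 members and in 21.7% of all genes, and the members' median difference was -0.43 against 0.02 over all genes. In bulk samples fewer cells of a type and less RNA per cell cannot be told apart.

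Among the phosphatases of ERK, Dusp6 fell by 2.04 in log2 units (SE 0.0461, adjusted p = 5.54e-30, edgeR's quasi-likelihood test with Benjamini-Hochberg adjustment, as for every adjusted p that follows). Dusp5 rose by 1.08 (SE 0.0385, edgeR adjusted p = 9.64e-24), or 2.11-fold, and Dusp4 rose by 1.25 (SE 0.121, edgeR adjusted p = 2.67e-11), or 2.37-fold. Dusp6 thus moved in the opposite direction to Dusp4 and Dusp5 in the same libraries. The other nuclear phosphatase genes, Dusp1 and Dusp2, did not rise. Dusp10, the JNK and p38 phosphatase, rose 1.82-fold (log2 0.86, SE 0.122), and Dusp1 was 1.23-fold lower (log2 -0.30, SE 0.0267). Dusp2 differed by -0.06 (SE 0.0325, edgeR adjusted p = 0.0926). Without aged uncultured replicate 1 its difference was -0.08 and the edgeR adjusted p 0.0495, just past the threshold.

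The 4 Sprouty and SPRED genes all fell with age. Spry1 was 2.04-fold lower (log2 -1.03, SE 0.108, edgeR adjusted p = 1.76e-10) and Spry2 1.85-fold lower (log2 -0.89, SE 0.0860). Spred2 fell by 0.70 (SE 0.0831) and Spred1 by 0.55 (SE 0.0604) on the log2 scale. Markers of other cell types moved between these groups: all 10 plasma cell markers and 9 of 10 mature B cell markers were called higher in aged cells, and all 11 neutrophil and all 11 erythroid markers lower. Summed neutrophil markers lay at 609 to 650.5 CPM in aged against 5956 to 6155 CPM in young libraries, and erythroid markers at 183 to 194 against 486 to 491. T and NK cell markers were called higher in 8 of 12 cases and lower in 2, macrophage markers higher in 3 of 10 and lower in 4, and stromal and endothelial markers higher in 3 of 9 and lower in 5. Summed T and NK cell markers lay at 311 to 341 CPM in aged against 151 to 157 CPM in young libraries. Macrophage markers lay at 469 to 487 against 1279 to 1335 CPM, and stromal and endothelial markers at 119.5 to 129 against 637 to 664 CPM. The part of all these markers in the members' results was not tested. When the immunoglobulin genes were left out of the scaling, every member kept its call.

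The second comparison set vehicle cultures against uncultured aged cells. Dusp1, Dusp2, Dusp5, Dusp10 and both Sprouty genes were far lower with vehicle, Spred1 was 3.07-fold higher, and Dusp4, Dusp6 and Spred2 were modestly higher. All 10 members were called, 4 higher and 6 lower, with edgeR's quasi-likelihood test, where 70.5% of all genes were called (35.4% higher and 35.1% lower), and all 10 had groups that did not overlap, against 71.5% of all genes. At 1 or more on the log2 scale 7 members and 28.8% of all genes were called. The members' median difference was -1.33 and that of all genes -0.01. The aged uncultured libraries serve in this comparison and in that with age, and the vehicle libraries in this one and in that with uridine, so these comparisons are not independent of each other. The sources used here do not say how these groups differed besides the culture itself.

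Dusp5 was 12.7-fold lower (log2 -3.67, SE 0.0484, edgeR adjusted p = 8.46e-38) and Dusp1 11.8-fold lower (log2 -3.56, SE 0.0335, edgeR adjusted p = 2.27e-42). Dusp10 was 8.24-fold lower (log2 -3.04, SE 0.150) and Dusp2 5.83-fold lower (log2 -2.54, SE 0.0384). Of the 4 nuclear phosphatases 3 thus fell together, while Dusp4 rose 1.54-fold (log2 0.62, SE 0.105). Dusp6 rose 1.29-fold (log2 0.37, SE 0.0505, edgeR adjusted p = 6.07e-08), and so did not share the fall of Dusp5, although both phosphatases act on ERK.

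Spry1 was 2.70-fold lower with vehicle (log2 -1.43, SE 0.131) and Spry2 2.33-fold lower (log2 -1.22, SE 0.101). Spred1 rose 3.07-fold (log2 1.62, SE 0.0570, edgeR adjusted p = 3.36e-24) and Spred2 rose 1.52-fold (log2 0.60, SE 0.0838). Immediate early genes, of the class to which Dusp1 belongs, fell in this comparison in 22 of 22 cases, and their summed level went from 16510 to 16740 CPM in aged uncultured libraries to 967 to 1004 CPM with vehicle. Plasma cell, mature B cell and erythroid markers also fell in all 10, all 10 and all 11 cases, and the erythroid genes Slc4a1 and Rhag had 0 counts in the vehicle libraries. Of the 11 neutrophil markers 8 fell and 2 rose, of the 12 T and NK cell markers 10 fell and 1 rose, and of the 9 stromal and endothelial markers 7 fell and 1 rose. Of the 10 macrophage markers 7 rose and 3 fell, the latter being C1qa (-2.57), C1qb (-0.48) and C1qc (-0.69). Their summed level was 4015 to 4067 CPM with vehicle against 469 to 487 CPM, of which Lyz2 made up 2768 ± 22.0 CPM (SD, n = 3) with vehicle. The part of these lists in the members' results was not tested.

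**Figure D3:**
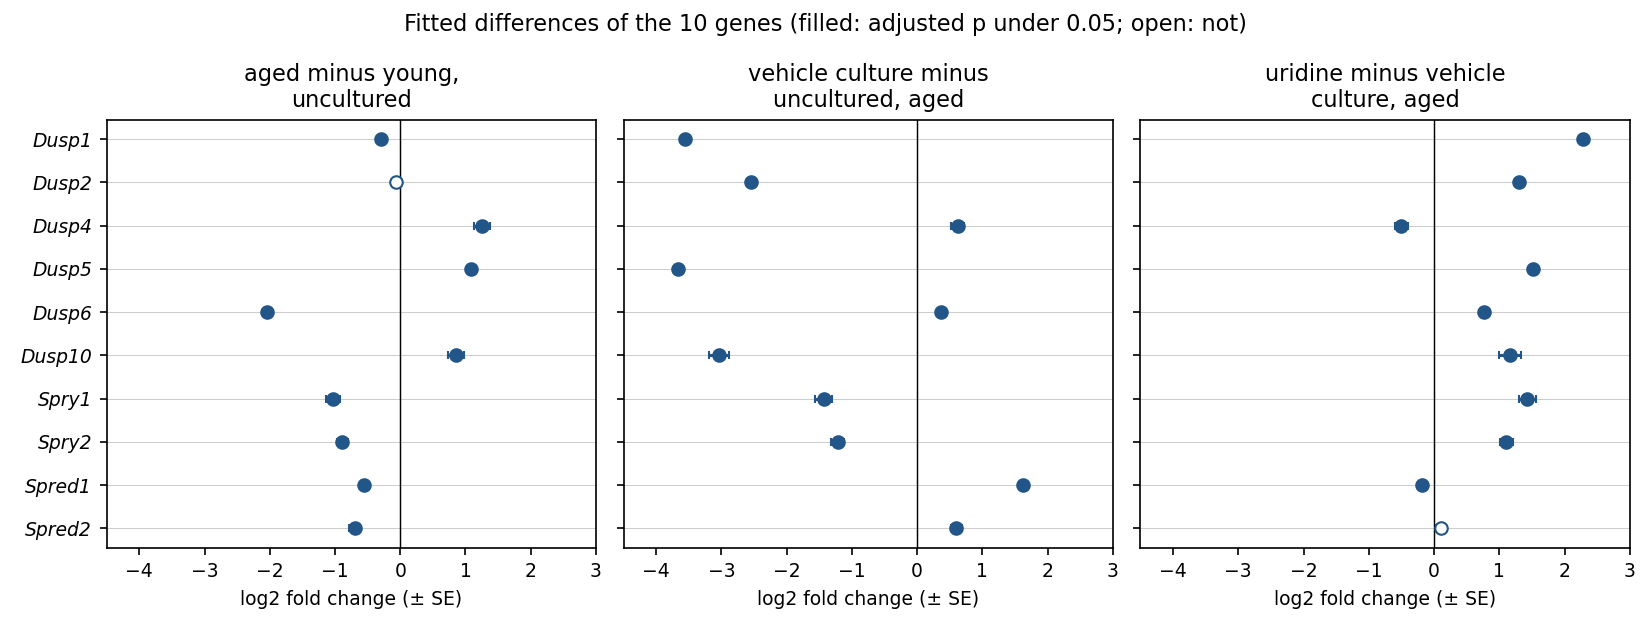
Fitted log2 fold change ± SE of each gene (horizontal axes) in the 3 comparisons; filled points have an edgeR adjusted p under 0.05 and open points do not. With age the values run from -2.04 (Dusp6) to 1.25 (Dusp4), with vehicle from -3.67 (Dusp5) to 1.62 (Spred1) and with uridine from -0.50 (Dusp4) to 2.29 (Dusp1); the last pair of panels share the vehicle libraries.

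The third comparison set uridine against vehicle. Dusp1, Dusp2, Dusp5, Dusp6, Dusp10, Spry1 and Spry2 were higher with uridine, from 1.71-fold for Dusp6 to 4.88-fold for Dusp1, while Dusp4 and Spred1 were lower and Spred2 was called neither way. The 7 members called higher and 2 called lower by edgeR's quasi-likelihood test compare with 38.1% of all genes called (20.0% higher and 18.1% lower). At 1 or more on the log2 scale 6 of 10 members and 7.03% of all genes were called, and 9 members and 50.0% of all genes had groups that did not overlap. The members' median difference was 1.14 against -0.00 over all genes. Whether these differences are responses of the genes to uridine or come from young-like RNA within the uridine libraries was not tested.

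Dusp1 rose 4.88-fold with uridine (log2 2.29, SE 0.0340, edgeR adjusted p = 5.15e-35). Dusp5 rose 2.85-fold (log2 1.51, SE 0.0536, edgeR adjusted p = 4.78e-23) and Dusp2 2.47-fold (log2 1.31, SE 0.0396). Dusp4 was the nuclear phosphatase that fell, by 0.50 (SE 0.101, edgeR adjusted p = 1.20e-04), or 1.41-fold. Dusp6 rose by 0.77 (SE 0.0447, edgeR adjusted p = 1.07e-16). Dusp10 rose 2.25-fold (log2 1.17, SE 0.168), with the widest error among the members.

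Spry1 rose 2.70-fold (log2 1.43, SE 0.127, edgeR adjusted p = 1.25e-11) and Spry2 2.17-fold (log2 1.11, SE 0.0984, edgeR adjusted p = 1.12e-11). Spred1 was 1.14-fold lower (log2 -0.18, SE 0.0494, edgeR adjusted p = 0.00327), and Spred2 differed by 0.10 (SE 0.0768, edgeR adjusted p = 0.309) with overlapping groups. Sprouty and SPRED proteins share a conserved domain, and the difference between the responses of their genes was not itself tested.

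Set against the uncultured groups, the uridine libraries did not reach young levels of most members. Against young cells 7 members were called lower with uridine, 2 higher and Spred2 neither way (log2 0.01, edgeR adjusted p = 0.958), where 49.4% of all genes were called (26.2% higher and 23.3% lower). On the log2 scale the difference was -1.57 for Dusp1, -1.30 for Dusp2 and -0.90 for Dusp6. Against aged uncultured cells 3 members were called higher, 4 lower and 3 neither way, where 67.9% of all genes were called (35.8% higher and 32.1% lower). Those called neither way were Dusp4, Spry1 and Spry2, at differences of 0.12, -0.00 and -0.11 (edgeR adjusted p 0.318, 0.989 and 0.294). For Dusp6 the difference from aged uncultured cells was 1.14 on the log2 scale and for Dusp5 it was -2.16.

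To place the uridine libraries, each was given a position between the vehicle mean (0) and the young mean (1) on the linear CPM scale. This measure uses the vehicle libraries of the uridine comparison and is a description. It does not tell a response to uridine from a share of young-like RNA in these libraries. The 9 members that differed between vehicle and young cells had positions from 0.23 to 0.40, with a median of 0.35, and all 3 uridine libraries of each lay between the means. This held for the 7 members that were higher with uridine and equally for Dusp4 and Spred1, which were lower. The 4137 genes that differed between vehicle and young cells by at least 1 on the log2 scale, in either direction, had a median position of 0.38, with quartiles at 0.29 and 0.49. A narrower reference of 144 genes, no members among them, with a young mean of 10 times the vehicle mean or more had a median of 0.33, with quartiles at 0.31 and 0.36. Of the members, Dusp1 has a difference of that size and direction.

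Dusp1 and Dusp2 lay at 0.29 ± 0.00478 and 0.29 ± 0.0102 (SD, n = 3), at the lower quartile of the 4137 genes. The uridine libraries of Dusp1, at 0.28, 0.29 and 0.29, all lay below the lower quartile of the narrower reference, 0.31. Dusp5 lay at 0.37 ± 0.0274 and Dusp6 at 0.32 ± 0.0314, and Spry1 and Spry2 at 0.38 ± 0.0840 and 0.35 ± 0.0592. Dusp4 lay at 0.40 ± 0.0986 and Dusp10 at 0.36 ± 0.157, where single libraries reached 0.48 and 0.53. Spred1 had the lowest position, 0.23 ± 0.0310, the only 1 of the 9 below the lower quartile of the 4137 genes as rounded here. Spred2 was given none because its vehicle and young levels did not pass the test of a difference (log2 -0.10, edgeR adjusted p = 0.271). Measured instead towards the aged uncultured level the members scattered: the position was 0.16 for Dusp5, 0.17 for Dusp10, 0.36 for Dusp1, 0.87 for Spry2 and -3.16 for Dusp6.

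**Figure D4:**
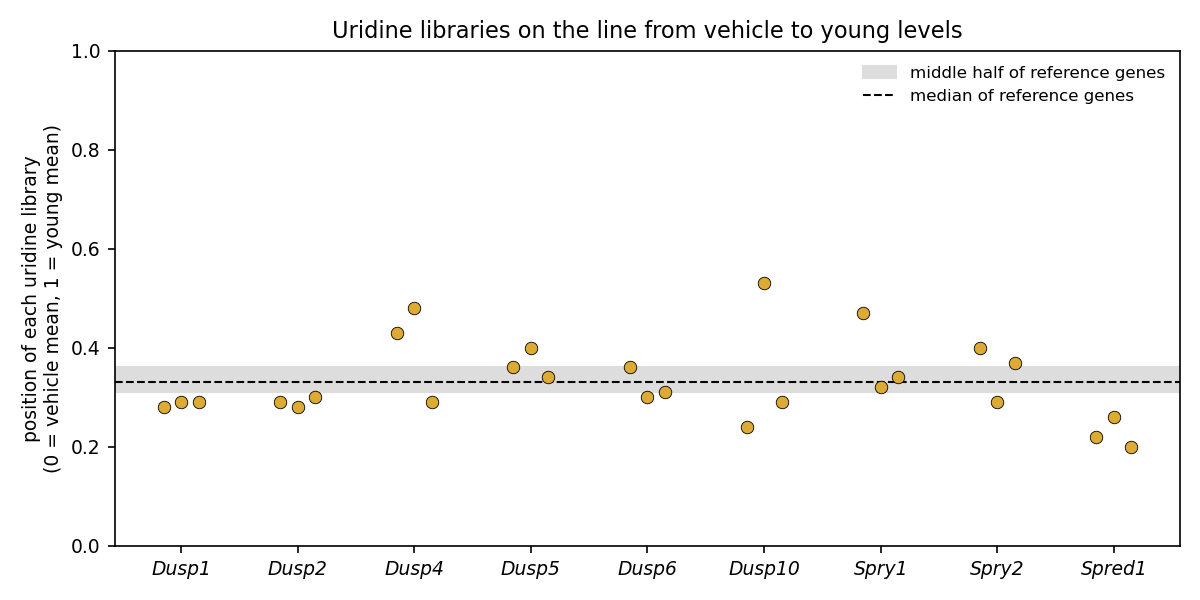
Position of each uridine library (points, 3 per gene) on the linear scale from the vehicle mean (0) to the young mean (1), for the 9 members that differ between those groups; the dashed line and the grey band are the median (0.33) and the quartiles (0.31 and 0.36) of 144 reference genes. The members' means lie between 0.23 and 0.40.

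Markers of other cell types moved in the uridine comparison too. All 11 erythroid markers were called higher than with vehicle, at a summed 166 to 170.2 CPM against 7.09 to 10.1 CPM, and 10 of 11 neutrophil markers were called higher and 1 lower, at 2261 to 2330 CPM against 394 to 399 CPM. Mature B cell markers were called higher in 8 of 10 cases and lower in 0 (343 to 349 against 186 to 189.6 CPM), T and NK cell markers higher in 8 of 12 and lower in 1 (89.7 to 94.0 against 73.3 to 78.5 CPM), and stromal and endothelial markers higher in 6 of 9 and lower in 0 (249 to 257 against 102 to 104 CPM). Macrophage markers were called lower in 6 of 10 cases and higher in 1, at 2572 to 2632 against 4015 to 4067 CPM, and plasma cell markers lower in 4 of 10 and higher in 2, at 764 to 788.5 against 1100 to 1150 CPM. Of the plasma cell sum, Jchain alone made up a mean of 439 CPM with uridine and 781 CPM with vehicle. Immediate early genes were called higher in 21 of 22 cases and summed to 4616 to 4625 CPM against 967 to 1004 CPM. The part of these lists in the members' results was not tested.

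The related phosphatases and Sprouty genes outside the 10 moved by no common rule. Of 9 tested (Spry3 was too scarce), 4 were higher and 3 lower with age, 6 were higher and 3 lower with vehicle against uncultured aged cells, and 1 was higher and 2 lower with uridine, by edgeR's quasi-likelihood test. Their median differences were 0.37, 0.92 and -0.22. Dusp14, encoding a small atypical phosphatase, stood at 13.6 ± 0.949 CPM (SD, n = 3) in aged uncultured, 0.422 ± 0.0867 in young and 0.451 ± 0.175 in vehicle libraries. Dusp22, encoding another atypical phosphatase, followed the same order at 24.4, 6.26 and 7.12 CPM. Dusp7, a close relative of Dusp6, rose by 0.92 on the log2 scale with vehicle and fell by 0.22 with uridine, where Dusp6 rose in both. Dusp3 rose by 1.82 with vehicle and fell by 0.56 with uridine, and Dusp8 rose by 2.26 with uridine from 28 counts in the vehicle group. Dusp3 (0.52) and Dusp16 (0.49) rose with age.

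The cascade that the members restrain was measured in 32 genes (Il17rd was too scarce). The list also holds genes of inhibitors, such as that of neurofibromin, so its counts give no direction of signalling. Of all genes 65.3% were called with age, 70.5% with vehicle and 38.1% with uridine. The counts of the gene lists were not tested against these shares. With age 7 of the 32 cascade genes were called higher and 20 lower, with a median of -0.24. Flt3, the receptor of early progenitors, fell by 0.83 with age on the log2 scale. Rasgrp1 and Rasgrp3, genes of Ras activators best known from T and B lymphocytes, rose by 3.04 and 3.72. They fell by 2.64 and 3.34 with vehicle against uncultured aged cells, beside the falls of the mature B cell markers given above, whose part was not tested. In that comparison 15 cascade genes were called higher and 11 lower (median 0.09). Rasgrp2 fell by 1.10 and Rps6ka3, encoding a kinase downstream of ERK, rose by 1.09. With uridine 12 were called higher and 5 lower (median 0.04): Rasgrp2 rose by 0.56, Flt3 by 0.37 and Rps6ka1 by 0.16, and Map2k1, the gene of MEK1, fell by 0.23.

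Of 20 genes of the JNK and p38 branch, on which the products of Dusp1 and Dusp10 act, 4 were called higher and 12 lower with age (median -0.30). Mapk14, the gene of p38 alpha, fell by 0.46, whereas Map3k1 rose by 0.79, Mapk11 by 2.41 and Mapk12 by 4.35, the last standing at 26.1 ± 1.30 CPM in aged against 1.28 ± 0.320 CPM in young cells. With vehicle 7 were called higher and 9 lower (median -0.08), among them Mapk12 (-4.39), Mapk11 (-2.30) and Map3k1 (-1.09), and Mapkapk2, encoding a kinase activated by p38, rose by 0.85. With uridine 10 were called higher and 2 lower (median 0.16). Mapk13 rose by 1.66, Map3k3 by 0.30 and Mapk14 by 0.18, and Mapkapk2 fell by 0.20.

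The list read here as ERK output holds target genes together with genes of factors such as serum response factor. With age 5 of 19 were called higher and 9 lower (median -0.00). Emp1 and Epha2 fell by 2.54 and 3.35, as Dusp6 and the Sprouty genes fell, while Egr3 rose by 1.15 and Plaur rose from 59.6 ± 0.942 to 119 ± 1.02 CPM. With vehicle 9 were called higher and 10 lower (median -0.52), and Egr1 (-3.35), Egr3 (-4.05), Plaur (-1.65) and Mcl1 (-0.96) fell. With uridine 11 were called higher and 2 lower (median 0.25): Egr1 rose by 2.04, from 54.4 ± 2.50 to 224 ± 5.56 CPM, Epha2 by 2.46, Egr3 by 2.09 and Mcl1 by 0.27. Immediate early genes, a list that shares Egr1, Egr2 and Egr3 with this one, were called higher with age in 18 of 22 cases and lower in 3 (median 0.67), with Junb at 1.30, Jund at 1.24 and Klf6 at -0.94. Their medians were -3.23 with vehicle and 1.75 with uridine. Fosb, Fos, Nr4a1 and Jun fell by 6.47, 5.22, 7.18 and 4.69 with vehicle and rose by 4.86, 2.96, 4.48 and 2.90 with uridine. Dusp1 itself was lower with age, as were the 3 genes of this list called lower.

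For each member the genes of the most similar pattern were sought among 10370 protein-coding genes, by Pearson's r of log2 CPM over the 12 libraries, which reflects the 4 group means more than the spread within groups. Klf4 and Bach2, genes of transcription factors, were most like Dusp1 (r 0.999 and 0.997). Klf4 stood at 225, 189.8, 23.3 and 93.9 CPM in young, aged uncultured, vehicle and uridine cells. Dusp5 was closest to Jund (0.998), encoding an AP-1 subunit, and to Prss57 (0.998). Klf13 was among the closest pair for Spry1 (0.992) and for Spry2 (0.992), beside Lemd3 and Arsb. Dusp2 was closest to Rab44 and Carmil2 (both 0.998), and Smarca4 was among the closest pair for Dusp6 (0.997). Arhgap31 was among the closest pair for Spred1 (0.997), and Dusp10 was closest to Akna (0.994) and Znrf3 (0.993). Lower values were found for Dusp4, with Nectin4 (0.983) and Ccl5 (0.982), and for Spred2, with Polr1a (0.980).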

How the data were processed

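RNA was extracted with Trizol, purified with poly-T beads and sequenced as 150 bp read pairs (Illumina NovaSeq), per the labels' protocols. The submitters' processing notes name HISAT2 2.0.5 as the aligner and mm10 as the build. The values are raw counts per gene deposited by the authors for 54532 Ensembl IDs. The program that counted reads, and whether it used strand, is not given in the sources used here. Symbols and exon lengths came from GENCODE M21 (54495 IDs matched, 37 did not), and promoters from RefSeq for GRCm38.p6. The members and gene lists were chosen with earlier results of these data known.

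Genes were kept by filterByExpr (16675), scaled by TMM and fitted with edgeR 4.0.16 in R 4.3.3, with 1 mean per group over all 12 libraries (8 residual degrees of freedom). Contrasts were tested with edgeR's quasi-likelihood test and Benjamini-Hochberg adjustment over all genes tested, at a threshold of 0.05. CPM values use the TMM library sizes, and log2 fold changes are fitted values. The script was tested on simulated data. All 10 members are named. From each further list up to 4 called genes with the smallest p per contrast are eligible, and for each member the 2 genes most alike with a mean of at least 5 CPM. Spry3 and Il17rd are named as not tested. A few genes eligible by this rule are not reported here.

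The 12 pairs of libraries within groups differed by more than counting noise (chi-square per degree of freedom 2.27 to 3.98). This does not show whether they came from separate animals or cultures. Each library was counted once in the tests. Alternatives were DESeq2 1.42.0, limma 3.58.1 (voom), other scalings and filters, the 6 compared libraries alone, a replicate block, each replicate left out in turn, and subtraction of a young-like share from the uridine libraries.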

Additional observations from a re-analysis of the deposited data

How the results depend on the processing

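Of the 30 differences of the 10 members in the 3 comparisons 28 were called, and these 28 kept direction and call under every other test, scaling, filter, choice of libraries and left-out replicate. The subtractions of a young-like share from the uridine libraries were the exception. That share comes from the position of the same libraries between vehicle and young cells, so these values restate the positions and do not test whether the differences hold. With the median share subtracted, 2755 genes were called between uridine and vehicle (6360 without) and 1 member was called higher (7 without), and Dusp1 stood at -4.22, where almost nothing of its level was left, Dusp2 at -0.64, Dusp6 at -0.07 and Spred1 at 0.10. With the lower quartile subtracted, added after seeing the data, 2907 genes were called and 1 member was called higher, and Dusp1 stood at -0.84, Dusp2 at -0.25 and Spred1 at 0.07. The difference of Spred2 between uridine and young cells (0.01) turned to -0.04 with DESeq2, -0.04 with its size factors and -0.05 with upper quartile scaling, and ran from -0.04 to 0.04 over left-out replicates. Counts in the further gene lists moved by at most 3 genes under settings other than the subtractions. Of these, the related phosphatases lower with age numbered 1 in place of 3 without aged uncultured replicate 2, those lower with uridine 1 in place of 2 without vehicle replicate 2 or uridine replicate 1, and the ERK output genes lower with uridine 1 in place of 2 without vehicle replicate 2 or 3 or uridine replicate 1 or 2.

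A replicate block gave 10768 genes called with age (10889 without), 6250 with uridine (6360) and 11667 with vehicle (11748), and changed no member's call. Deviations of libraries with the same number correlated at -0.04 to 0.01, and 1 of 9 correlated best with its own number. No pairing by number was seen, but these values do not show whether equal numbers share an animal or a batch. Depth limits Dusp10 most, at 170 counts over the vehicle group.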
